A study of Mus musculus with 4 samples.

Results

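The genes described are 9 of the 52459 genes listed. Cd24a, Cd44, Alcam and Epcam encode surface antigens used to sort intestinal stem cells (ISCs), and Cd9, Itga6, Itgb1, Itgb4 and Cdh1 encode epithelial adhesion molecules. They were taken by their gene symbol, and all 9 passed the count filter. ISCs divide at the base of the crypts of the small intestine and renew its lining. In the full length (FL) data set, RNA of sorted ISCs from wild-type C57/Bl6 mice was sequenced in 4 libraries, 2 from young animals of 2 months (ISC_2mth) and 2 from old animals of 22 months (ISC_22mth), and each library was made from a pool of 5 animals. No group carried a transgene or received a treatment, and the study's methods give the mice as female. The comparison asks whether RNA of the antigens that define the sort gate, and of the molecules that hold these cells to their neighbours and to the basement membrane, differs with age.

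The sort, called SM6, kept cells without CD31 and CD45, with a medium level of CD24, with CD166, a high level of CD44 and of EPHB2, a low level of GRP78, and with EPCAM. Cd24a encodes CD24, Alcam encodes CD166, Ephb2 encodes EPHB2 and Hspa5 encodes GRP78. These gates act on protein at the cell surface, so that RNA levels of these genes describe cells already chosen by their protein. In bulk libraries, fewer cells of a type and less RNA per cell cannot be told apart.

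CD24 is a small, heavily glycosylated protein anchored to the outer face of the membrane by lipid, and in the crypt it is known to be abundant on Paneth and enteroendocrine cells and lower on stem cells. CD44 binds hyaluronan and is a known target of Wnt signalling at the crypt base, CD166 is an adhesion molecule of the immunoglobulin type that binds itself and CD6, and EPCAM binds itself between epithelial cells. Integrins are pairs of an alpha and a beta chain: alpha 6, from Itga6, pairs with beta 1 or beta 4 to bind laminin, and with beta 4 it builds hemidesmosomes, which tie keratin filaments to the basement membrane. E-cadherin, from Cdh1, joins neighbouring epithelial cells through the catenins, and the tetraspanin CD9 gathers integrins and other proteins into membrane patches.

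Total counts per library ran from 11662654 to 15975698, those outside the mitochondrial genome from 3852178 to 4593004, and the 9 genes took 0.139 to 0.195% of all counts. Mitochondrially encoded genes took 62.6 and 65.7% of the counts in young and 73.8 and 72.9% in old ISCs, without overlap. Normalized CPM are counts scaled to library size after TMM, which sets libraries on a common scale from the bulk of their genes. Markers of crypt base stem cells were abundant in every pool, with Olfm4 between 1110 and 1300 and Lgr5 between 206 and 248 normalized CPM. RNA of the goblet cell gene Muc2 (1013 to 1438 normalized CPM) and of the Paneth cell gene Lyz1 (203 to 749) was also present. The antigens used to remove cells were at or near 0: Ptprc, which encodes CD45, had 2 counts in 1 ISC_22mth pool and 0 in the other 3, and Pecam1, which encodes CD31, had at most 7. Of the 5 endothelial and 6 mesenchymal markers, 3 each had no count in any library. Of the 8 leukocyte markers, 4 had no count, and Cd68, the only one to pass the filter, had 63 and 41 counts in young and 30 and 22 in old ISCs.

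Old and young pools were tested by the quasi-likelihood method of edgeR, and p-values were adjusted after Benjamini-Hochberg over all 13692 genes tested (FDR), with a threshold of 0.05. Of the 9 genes, Cd24a alone passed, higher in old ISCs, and none passed in the other direction. Over all genes tested, 2.26% passed, 1.63% higher and 0.628% lower in old ISCs. By sign, 5 of the 9 were above 0 and 4 below, against 49.5% and 50.5% of all genes. The median log2 fold change of the 9 genes was 0.020, against -0.0049 for all genes tested. At an unadjusted p under 0.05 there were 2 of the 9, Cd24a and Cd9, against 16.9% of all genes. With 2 pools per age, permuting the pools of 1 gene cannot reach the threshold, and no such test is given. The study describes the pools as separate sets of animals. The p-values rest on a spread between pools that is estimated for each gene with information borrowed from all genes tested. A gene whose ages overlap can therefore still have a low p.

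Cd24a, on chromosome 10 from 43578284 to 43584265 of GRCm38, rose with age. The young pools had 4838 and 4218 counts and the old pools 6280 and 6208, although fewer reads outside the mitochondrial genes were left in the old libraries. Normalized expression was 333 and 279 CPM in young and 474 and 508 CPM in old ISCs, so that both old pools lay well above both young pools. The mean rose from 306 ± 38.3 CPM (SD, n = 2 pools) to 491 ± 23.5 CPM (n = 2), which is 1.60 times the young level, or 0.68 on the log2 scale (95% interval 0.44 to 0.92, standard error 0.11, FDR = 0.00348 by edgeR). By p it stood at place 40 of the 13692 genes tested. It was called without each pool in turn, with a log2 fold change between 0.55 and 0.82 and an FDR of at most 0.0404, and with offsets for GC content and exonic length (0.59, FDR = 0.0223). Total counts gave 0.18 (FDR = 0.288); this scaling moved the median of all genes to -0.49, and relative to that median Cd24a was at 0.68.

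Counts of Cd24a were set against those of the other 5 sort antigens within each library, where no scaling enters. There were 0.707 and 0.564 Cd24a counts per Epcam count in the young pools and 1.01 and 0.952 in the old pools. Per Cd44 count, the young pools held 2.36 and 2.34 Cd24a counts and the old pools 4.81 and 4.18. Per Alcam count they were 9.77 and 6.88 in young against 11.3 and 11.8 in old pools, and per Ephb2 count 5.66 and 5.42 against 13.4 and 12.2. In these 4 ratios the old pools lay above the young pools. Per Hspa5 count the ages overlapped, with 3.85 and 2.85 in young and 3.55 and 5.50 in old pools. Such a ratio shows unequal change of a pair of genes and does not say which of them moved.

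Markers of other crypt cell types moved in part with Cd24a. The 7 Paneth cell markers summed to 942 and 724 normalized CPM in young ISCs and to 2068 and 808 in old ISCs, and Defa17 and Defa24 had FDR under 0.05, 2 defensin genes of which 92.0% and 28.1% of the 50-nt stretches also occur in transcripts of other genes. At an unadjusted p under 0.05 there were 6 of the 7, 5 of them higher in old ISCs, and the median log2 fold change was 0.83. Defa17 (41.4 and 35 against 114 and 50.5 CPM) and Defa24 (266 and 199 against 583 and 267 CPM) were higher in both old pools, by a small margin for Defa24 in one of them, while the other 5 overlapped between ages. Cd24a was as high in the ISC_22mth pool with 808 (508 CPM) as in the one with 2068 (474 CPM). The 8 enterocyte markers summed to 387 and 519 in young and to 879 and 802 in old ISCs without overlap, and 3 of the 8 passed the test, led by Fabp1, a fatty acid binding protein (log2 fold change 2.35, FDR = 2.35e-06), all higher in old ISCs, as were the 6 of the 8 at an unadjusted p under 0.05. Enteroendocrine markers overlapped between ages, with sums of 41.2 and 153 in young and 130 and 94.7 in old ISCs, and none of the 7 tested had FDR under 0.05, with 1 at an unadjusted p under 0.05. Goblet markers overlapped too (1685 and 2209 against 2284 and 1794), and so did the sum of the 6 stem cell markers (1938 and 1814 against 1652 and 1846), most of which is Olfm4. None of the 6 had FDR under 0.05 by edgeR, and 3 had an unadjusted p under 0.05. Singly, 4 of the 6 did not overlap between ages: Lgr5, Axin2 and Sox9 were lower and Ascl2 higher in both old pools, where 47.6% of all genes tested did not overlap, 23.6% lower and 24% higher. The lowest FDR was that of Axin2, a Wnt target (log2 fold change -0.46, FDR = 0.0510). Tuft markers summed to 3.03 and 4.96 in young and 8.39 and 5.15 in old ISCs, with 2 of the 6 at 0 in all libraries, and of the 3 tested Dclk1 passed (0.276 and 0.265 against 3.17 and 1.55 CPM). The part of these cell types, and of the mitochondrial share of counts, was not tested for the Cd24a difference. Nor was it tested for the partner genes described below, the desmosomal genes and Ceacam1 among them.

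**Figure D1:**
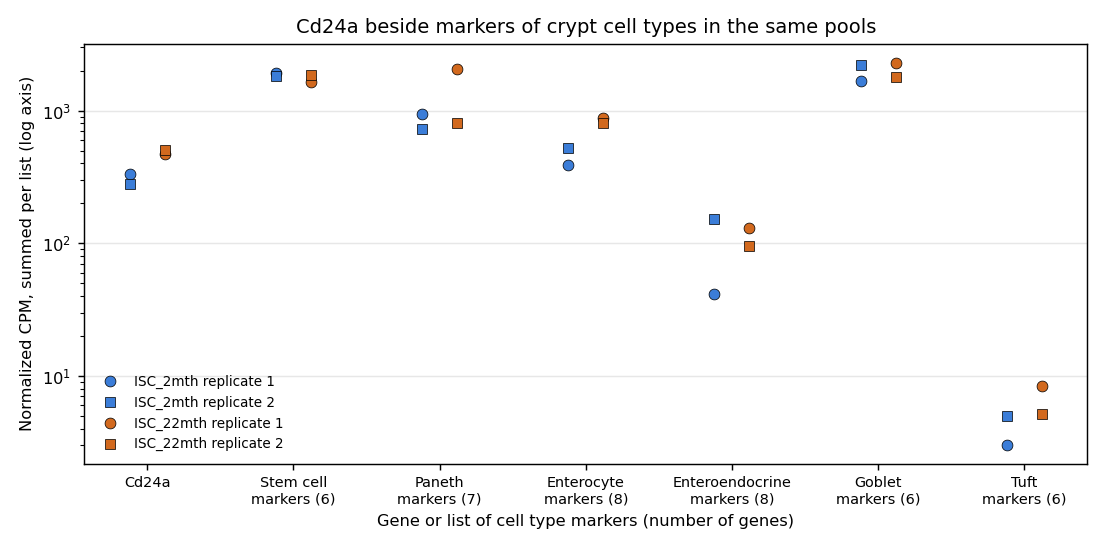
Normalized CPM (log axis) of Cd24a and of 6 lists of cell type markers, each summed over its genes, in the 2 ISC_2mth pools (blue) and the 2 ISC_22mth pools (orange), with circles for replicate 1 and squares for replicate 2. Cd24a and the enterocyte markers lie higher in both old pools, whereas the sum of the Paneth markers lies above both young pools in 1 old pool only.

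The profiles most like that of Cd24a were sought among the 6117 other genes with a mean of at least 10 normalized CPM, as the Euclidean distance between centred log2 CPM over the 4 libraries. The nearest were Slc6a4, which encodes the serotonin transporter, at a distance of 0.042, Coro2a, which encodes a coronin, at 0.096, and Retsat, which encodes retinol saturase, at 0.099. Slc6a4 had 21.9 and 17.6 CPM in young and 30.7 and 33.0 CPM in old ISCs (log2 fold change 0.69, FDR = 0.0250). Coro2a also passed the test (0.66, FDR = 0.00941), whereas Retsat did not (0.62, FDR = 0.129). With 4 libraries, many genes can be close to any profile, and the distances are a description.

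Epcam, on chromosome 17 from 87635979 to 87651129, had the highest mean level of the 9 genes per exonic length and did not pass the test. It had 471 and 495 normalized CPM in young and 472 and 533 in old ISCs, and the ages overlapped. The mean was 483 ± 16.9 CPM against 502 ± 43.6 CPM (SD, n = 2 pools each), and the 95% interval of the log2 fold change ran from -0.17 to 0.28 around 0.056 (FDR = 0.840). The interval leaves out a change of the size seen in Cd24a.

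Cd44, on chromosome 2 from 102811141 to 102901665, had 141 and 119 normalized CPM in young and 98.7 and 121 in old ISCs. The old pool of 121 lay just above the young pool of 119, so the ages overlapped. On the log2 scale the difference was -0.24 (95% interval -0.52 to 0.033, standard error 0.13, FDR = 0.365), and scaling by total counts, with its shift of all genes, gave -0.74 (FDR = 0.000698), or -0.24 relative to the median of all genes. CD44 is made in many splice forms, and counts per gene do not separate them.

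Alcam, on chromosome 16 from 52248996 to 52454074, had 34.1 and 40.6 normalized CPM in young and 41.9 and 42.9 in old ISCs. The old pools exceeded the young ones by a small margin. Ages did not overlap for 5 of the 9 genes, 3 higher and 2 lower, against 47.6% of all genes tested, 24% higher and 23.6% lower. Its log2 fold change was 0.18 (95% interval -0.11 to 0.48, FDR = 0.538) and was -0.30 with total counts, or 0.19 relative to the median of all genes under that scaling.

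Among the genes of this set in the RefSeq table of promoter windows (GRCm38.p6), 5 of 9 had a window of 300 bases, from 250 before to 50 after the start site: Cd44, Alcam, Epcam, Cd9 and Itgb1. The windows of the 3 sort antigens are shown because these genes share a gate. Capitals mark the GC box GGGCGG, the CCAAT box CCAAT and the E-box CACCTG, each read on both strands. The Cd44 window is chr2:102901616-102901915 on the minus strand, that of Alcam chr16:52453032-52453331 on the minus strand, and that of Epcam chr17:87635729-87636028 on the plus strand.
Cd44: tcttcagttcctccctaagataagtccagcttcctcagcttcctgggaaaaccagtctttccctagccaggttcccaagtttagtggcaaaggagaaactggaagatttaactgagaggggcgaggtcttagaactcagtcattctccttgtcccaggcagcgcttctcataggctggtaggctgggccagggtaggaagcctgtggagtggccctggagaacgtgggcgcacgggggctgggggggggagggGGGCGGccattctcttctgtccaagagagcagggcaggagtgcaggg
Alcam: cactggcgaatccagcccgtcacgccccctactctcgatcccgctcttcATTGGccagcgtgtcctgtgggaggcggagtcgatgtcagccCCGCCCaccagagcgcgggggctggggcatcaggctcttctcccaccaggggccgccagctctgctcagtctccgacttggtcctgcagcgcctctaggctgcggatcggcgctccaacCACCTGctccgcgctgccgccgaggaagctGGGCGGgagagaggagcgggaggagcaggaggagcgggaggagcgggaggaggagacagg
Epcam: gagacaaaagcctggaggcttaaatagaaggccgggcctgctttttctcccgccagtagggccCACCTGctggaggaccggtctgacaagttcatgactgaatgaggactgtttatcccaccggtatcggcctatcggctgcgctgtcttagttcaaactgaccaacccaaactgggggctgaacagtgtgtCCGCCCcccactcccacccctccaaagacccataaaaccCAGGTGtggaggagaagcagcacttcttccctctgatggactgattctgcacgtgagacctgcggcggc
All 5 windows held at least 1 GC box, a motif found in 35.7% of the 32851 windows of the table. The E-box letters, which stood in 20.2% of all windows, occurred in Alcam, Epcam and Cd9. The CCAAT box, in 37.4% of all windows, occurred in Alcam alone. The letters TATAAA (13.6% of all windows) and the TCF and LEF core CTTTGA (16%) were in none of the 5. Their GC content ran from 57.0% in Epcam to 69.7% in Alcam, against a median of 52.7% over all windows. These matches are descriptions of the letters and not binding sites.

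Cd9, on chromosome 6 from 125460266 to 125494791, had few reads, 107 and 127 in the young and 144 and 170 in the old libraries. Normalized expression was 7.37 and 8.40 CPM in young and 10.9 and 13.9 CPM in old ISCs, without overlap. The ratio of 1.57 was close to that of Cd24a but less precise, with a log2 fold change of 0.65 (95% interval 0.20 to 1.10, standard error 0.22, FDR = 0.127 by edgeR). Without ISC_22mth replicate 1 it was called (FDR = 0.0354), and in none of the other fits. Its exons overlap 218 bp of Gm26728 on the opposite strand, a gene with 2 counts in 1 old pool and 0 in the other libraries, and 14.4% of its own 50-nt stretches are shared with other genes.

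Of the integrin genes, none had FDR under 0.05 by edgeR, and none an unadjusted p under 0.05. Itga6, on chromosome 2 from 71745616 to 71858416, had 185 and 197 normalized CPM in young and 181 and 157 in old ISCs, both old pools below both young pools. Its log2 fold change was -0.17 (95% interval -0.42 to 0.074, FDR = 0.486). Itgb4, on chromosome 11 from 115974709 to 116008412, had 35.7 and 34.1 CPM in young and 30.3 and 29.5 CPM in old ISCs, again without overlap. Its log2 fold change of -0.22 (95% interval -0.52 to 0.070, FDR = 0.449) became 0.021 with the GC content and length offsets, and its exons hold 59.1% G and C, the highest share among the 9 genes. Over 537 bp, or 7.66% of their length, these exons overlap B230344G16Rik on the opposite strand, which had 1 to 4 counts per library.

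Itgb1, on chromosome 8 from 128685654 to 128733200, had 44.8 and 51.8 normalized CPM in young and 55.8 and 42.2 in old ISCs. The old pools lay on either side of the young pools, and the log2 fold change was 0.020 (95% interval -0.29 to 0.33, FDR = 0.961), with a sign that varied between settings. Per Itgb1 count, the young pools held 4.12 and 3.79 Itga6 counts and the old pools 3.25 and 3.72, both lower. Per Itgb4 count, the Itga6 counts were 5.17 and 5.76 in young and 5.99 and 5.31 in old ISCs, and overlapped.

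Cdh1, on chromosome 8 from 106603351 to 106670246, was, with Itgb1, among the genes of the set with estimates nearest 0. It had 317 and 346 normalized CPM in young and 314 and 340 in old ISCs, which overlapped nearly in full. The means were 331 ± 20.4 and 327 ± 18.5 CPM (SD, n = 2 pools each), with a log2 fold change of -0.018 (95% interval -0.25 to 0.21, FDR = 0.954), whose sign turned with the GC content and gene length offsets, with or without the block, and in 2 of the 4 fits with a pool left out.

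**Figure D2:**
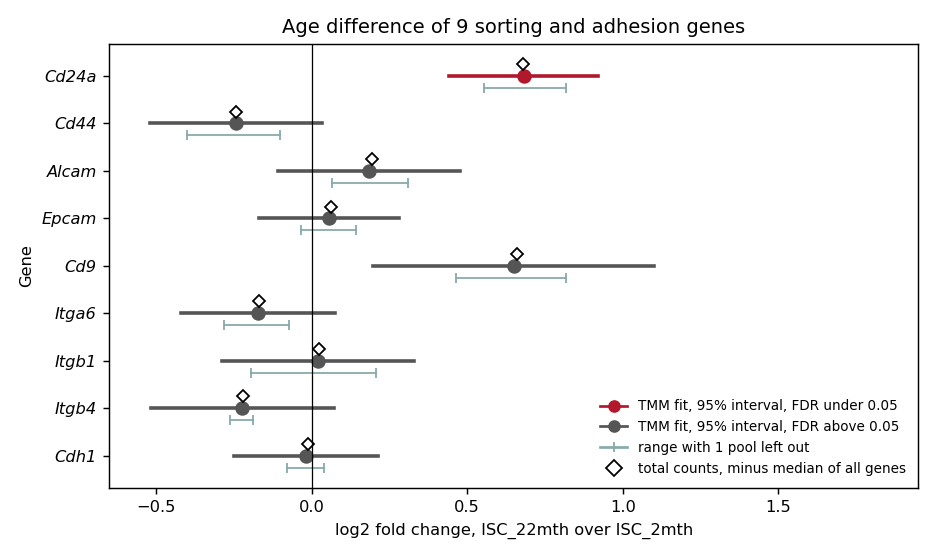
Log2 fold change of ISC_22mth over ISC_2mth for the 9 genes, with 95% intervals of the edgeR fit (thick lines, red at FDR under 0.05), the range with each pool left out in turn (thin lines), and the value under total counts minus the median of all genes (diamonds). Only the interval of Cd24a belongs to a gene with FDR under 0.05, while Cd9 has a similar estimate with a wider interval of 0.20 to 1.10.

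Levels of the 9 genes were compared per kilobase of exonic length, in GENCODE vM21 gene models. Epcam stood first in all 4 libraries, between 215 and 243 normalized CPM per kb, followed by Cd24a between 108 and 197 and by Cdh1 between 68.7 and 75.6. The ranges of these 3 genes did not overlap with each other or with those below. Itga6 (17.4 to 21.8) and Cd44 (14.6 to 20.8) overlapped and changed places between libraries, and Itgb1 came next (10.3 to 13.7). Alcam (4.79 to 6.03), Cd9 (3.61 to 6.80) and Itgb4 (4.21 to 5.09) overlapped at the low end. Epcam lay at percentile 99.7 and Itgb4 at percentile 73.3 of the genes tested by mean level per kb. With the length of the longest transcript in place of all exons, Alcam and Cd9 changed places, Cd24a stood above Epcam in both old pools (261 and 280 against 231 and 261 normalized CPM per kb) and below it in both young pools (184 and 154 against 231 and 243), Itga6 and Cd44 no longer overlapped, and the mean level of Itga6 was 41.7 instead of 19.9, as its exons together span 9025 bp and its longest transcript 4310.

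**Figure D3:**
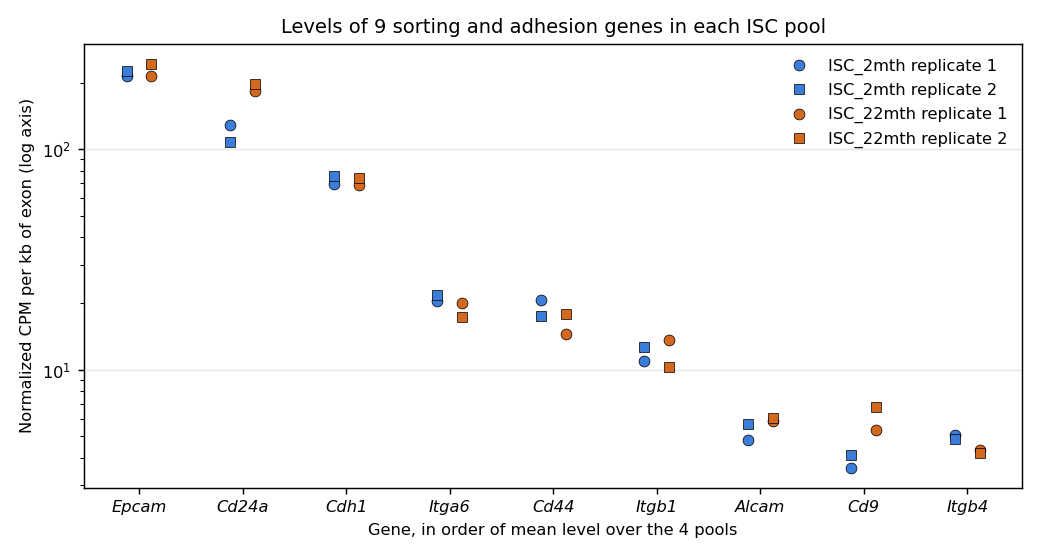
Level of each of the 9 genes in each pool in normalized CPM per kb of exon (log axis), ordered by the mean over the 4 pools, with ISC_2mth in blue, ISC_22mth in orange, circles for replicate 1 and squares for replicate 2. The order from Epcam to Cdh1 is the same in every pool, the ages separate clearly in Cd24a, and the 3 genes at the low end overlap.

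Genes that act with these molecules were taken from 11 lists of 132 genes in all, of which 93 passed the count filter. Of these, 4 had FDR under 0.05, 3 of them higher and 1 lower in old pools, and their median log2 fold change was -0.039. This is a larger share than in the whole table, where 2.26% of genes passed, and the lists were chosen with earlier results of these data known. At an unadjusted p under 0.05 there were 10 higher and 15 lower of the 93, against 9.26% and 7.65% of all genes tested. Both counts are above these shares, that of the lower genes more clearly.

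Of the other sort antigens, Ephb2 and Hspa5 were tested, and neither passed by edgeR. The study's own list of genes differing with age includes Cd24a and also Ephb2, Axin2 and Tspan8, which did not pass here. Ephb2, which encodes a receptor that positions cells along the crypt, had 58.9 and 51.5 normalized CPM in young and 35.5 and 41.6 in old ISCs, without overlap. The log2 difference was -0.52 with a standard error of 0.14 (FDR = 0.0576 by edgeR), and it lay near the threshold: it was called in 8 of 14 other fits, limma voom with sample quality weights among them (FDR = 0.0452), and in 2 of 4 fits with a pool left out. With the GC content and length offsets it was -0.31 (FDR = 0.294). Hspa5, which encodes an endoplasmic reticulum chaperone, had 86.5 and 97.9 CPM in young and 134 and 92.2 CPM in old ISCs, which overlapped (log2 fold change 0.29, FDR = 0.326).

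Among relatives of EPCAM and the matriptase protease system, 4 of 5 genes were tested and none passed by edgeR, with 2 at an unadjusted p under 0.05. The lowest p belonged to St14, which encodes matriptase (log2 fold change -0.31, FDR = 0.275). Among ligands, cytoskeletal anchors, splicing factors and sheddases of CD44, 11 of 16 were tested, none passed, 2 had an unadjusted p under 0.05, and Nf2, which encodes merlin, had the lowest p (-0.30, FDR = 0.275). None of the 3 ligands of CD24 and CD166 passed the count filter. Of the 12 other integrin subunits, 7 were tested and none passed, with 0 at an unadjusted p under 0.05, and the lowest p was that of Itga3, another laminin-binding alpha chain (-0.19, FDR = 0.569).

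Of 17 basement membrane ligands, 7 were tested, 6 of them lower in old ISCs, with a median log2 fold change of -0.47. Hspg2, which encodes the proteoglycan perlecan, fell from 33.2 and 23.8 normalized CPM in young to 16.2 and 14.5 in old ISCs. The old pools were the lowest of the 4, and the log2 difference was -0.89 with a standard error of 0.18 (FDR = 0.0127). It was not called with the GC content and length offsets (-0.56, FDR = 0.148) or without ISC_2mth replicate 1 (-0.63, FDR = 0.222). Of hemidesmosome and focal adhesion genes, 17 of 19 were tested, 13 of them with a value below 0, and none passed, with 5 at an unadjusted p under 0.05. Plec, which encodes the hemidesmosome linker plectin, had the lowest p (-0.58, FDR = 0.0749), was called in 3 of 14 other fits and in 1 of 4 with a pool left out, and was at -0.23 (FDR = 0.554) with the GC content and length offsets.

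Tetraspanins and their partners were split evenly, with 10 of the 19 tested above and 9 below 0, none past the threshold and 2 at an unadjusted p under 0.05. Tspan8, with the lowest p, had 99.0 and 116 normalized CPM in young and 150 and 129 in old ISCs (log2 fold change 0.38, FDR = 0.127). It was called without ISC_22mth replicate 2 (0.49, FDR = 0.00987), and was at 0.17 (FDR = 0.590) with the GC content and length offsets and at -0.11 with total counts, where the median of all genes was -0.49. Of adherens junction genes, 13 of 15 were tested, 10 of them below 0, none passed and 4 had an unadjusted p under 0.05, led by Plekha7, which encodes a junction protein that binds p120 catenin (-0.48, FDR = 0.0976, and -0.26 with FDR = 0.437 under the same offsets).

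The 7 genes listed as desmosomal were all tested and had values above 0, with a median of 0.21 and 2 of them past the threshold. Jup, which encodes plakoglobin, a protein of desmosomes as well as adherens junctions, was listed with the latter and had 73.5 and 76.9 normalized CPM in young and 57.0 and 71.0 in old ISCs (-0.23, FDR = 0.393). Desmosomes join neighbouring cells and anchor keratin. Pkp2, which encodes the plaque protein plakophilin 2, rose from 44.2 and 48.6 normalized CPM in young to 73.5 and 75.2 in old ISCs (log2 fold change 0.68, standard error 0.13, FDR = 0.00750). Perp, which encodes a membrane protein of desmosomes, rose from 27.6 and 36.9 to 52.7 and 45.0 CPM (0.60, standard error 0.15, FDR = 0.0472). Without ISC_2mth replicate 1 the FDR was 0.0750 for Pkp2 and 0.475 for Perp, with log2 fold changes of 0.62 and 0.41. With total counts the FDR was 0.308 and 0.587, while relative to the median of all genes the log2 fold changes were 0.69 and 0.61. Perp was also not called by DESeq2 (FDR = 0.0880), with the upper quartile (0.0672), with filterByExpr (0.0632), with at least 10 counts in every library (0.0563), with the GC content and length offsets (0.159) or without ISC_22mth replicate 1 (0.0574).

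Of 13 adhesion molecules of the immunoglobulin type, 7 were tested, 3 above and 4 below 0. Ceacam1, which encodes a cell adhesion receptor of epithelia, rose from 300 and 304 normalized CPM in young to 404 and 442 in old ISCs (log2 fold change 0.49, standard error 0.11, FDR = 0.0223). Its count is uncertain, as 30.4% of the 50-nt stretches in its transcripts are shared with another gene, mostly Ceacam2. Without ISC_2mth replicate 1 its FDR was 0.159, without ISC_2mth replicate 2 it was 0.0915, and scaling by total counts gave a log2 fold change of -0.0038 (FDR = 0.983), or 0.49 relative to the median of all genes, the same as by TMM.

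**Figure D4:**
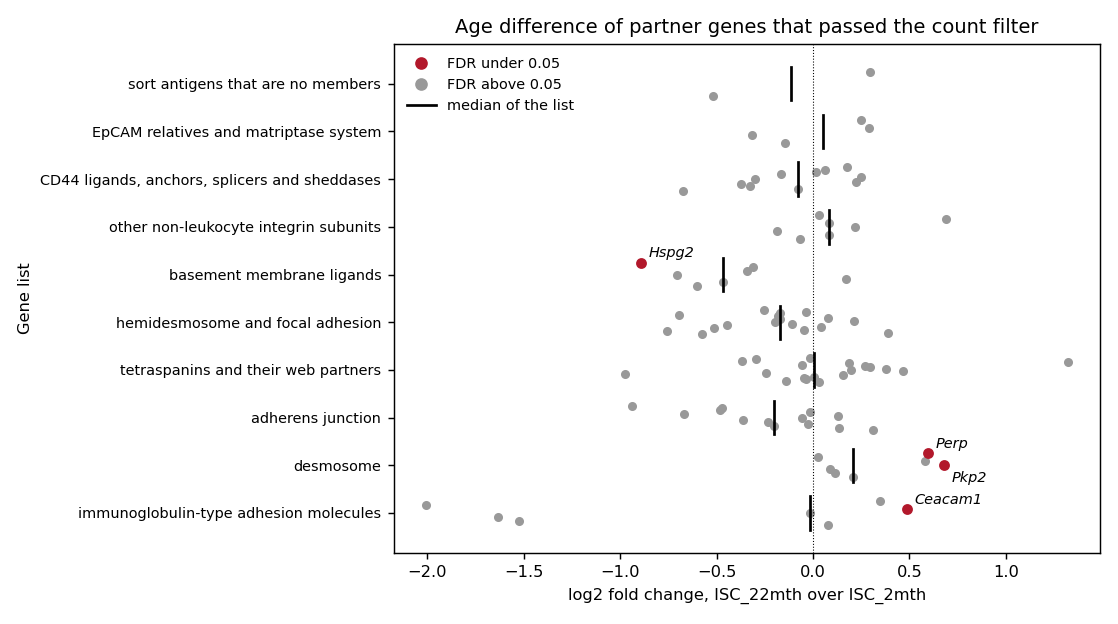
Log2 fold change of ISC_22mth over ISC_2mth for the partner genes that passed the count filter, by list, with red points at FDR under 0.05, grey points above it and a black line at the median of each list. The 4 called genes are Hspg2, Perp, Pkp2 and Ceacam1, and the median of the basement membrane ligands is the lowest at -0.47.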

How the data were processed

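Per the labels, RNA of FACS-isolated ISCs was amplified by SPIA (single primer isothermal amplification, without molecular identifiers), and libraries were single-end. The authors used Trimmomatic 0.30 to trim reads, then aligned them with STAR 2.4.2a to GRCm38, counted reads in exons of GENCODE vM15 with featureCounts, and deposited raw counts per gene. Strand setting and multi-mapping reads are not given in the sources used here.

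As in the study's methods, a gene entered the test if any 1 pool had over 5 reads and over 1 CPM for it. Ages were compared with edgeR 4.0.16 (R 4.3.3; TMM, glmQLFit, glmQLFTest, no covariate, Benjamini-Hochberg over all genes tested). The study used limma voom with sample quality weights, run with limma 3.58.1 as an alternative, beside DESeq2 1.42.0, other scalings and filters, a replicate block, and offsets for exonic GC content and length (lowess, span 0.3). Standard errors were derived from the log2 fold change and the F value. Positions, lengths and overlaps came from GENCODE vM21 (GRCm38), matched by symbol for 47976 of 52459 names. Scripts were tested on counts simulated with the means, depths and spread of these data, with changes given to genes of at least 3 normalized CPM. The quasi-likelihood test called 7 of 50 genes changed by 0.5 on the log2 scale, 14 of 50 at 0.7 and 32 of 50 at 1. A gene that did not pass can therefore still differ. A floor of 3 counts was 0.198 to 0.245 normalized CPM, for counting error only. Replicate pools differed by more than sampling noise (chi-square per gene 9.54 and 7.19).

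The 9 genes and all lists were chosen with earlier results of these data known. Named partner genes are those with FDR under 0.05 in a list or else the 1 of lowest p (Hspa5, Ptprc, Pecam1 and Jup, outside this rule, were named as antigens of the sort or, for Jup, as a desmosomal protein of another list, after their values were seen), and nearest profiles are the 3 closest genes. Cell type markers were listed by symbol, and every list's result is given.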

Additional observations from a re-analysis of the deposited data

How the results depend on the processing

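Total counts as the scale put the median of all genes at -0.49 (log2) and moved results most: 4632 genes, 6 of the 9 genes (all lower) and 49 partner genes had FDR under 0.05, and the log2 fold changes of Alcam, Epcam and Itgb1 turned to -0.30, -0.43 and -0.47. The number of genes called, 309 by the quasi-likelihood test, was 197 by DESeq2, 611 by the likelihood ratio test, 554 without a filter and 182 with GC content and gene length as offsets. The 4 partner genes called became 8 with the likelihood ratio test and 2 with these offsets, alone or with the replicate block; counting partner genes across settings was chosen after seeing the data. Replicate numbers are only names here, as same-numbered pools did not deviate together (correlation -0.00015); with the replicate block 624 genes and 8 partner genes were called and the 9 genes kept their calls. Cd24a alone of the 9 was called in 13 of 14 other fits, all but total counts.

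Relative to that median, Alcam, Epcam and Itgb1 under total counts were at 0.19, 0.063 and 0.025, with the same sign as by TMM. Itgb1 was -0.020 with the upper quartile and -0.0016 with at least 10 counts in every library; with the offsets Itgb1, Itgb4 and Cdh1 were -0.092, 0.021 and 0.021, and with offsets and block -0.099, 0.020 and 0.022. When 1 pool was left out, the lone pool of an age being taken to vary like the others, 147 to 687 genes, 1 to 2 of the 9 and 0 to 11 partner genes were called, with 0 without ISC_2mth replicate 1 and 11 without ISC_22mth replicate 2. Itgb1 then ranged from -0.20 to 0.21, Cd44 from -0.40 to -0.10, Alcam from 0.067 to 0.31, Itga6 from -0.28 to -0.072, Epcam from -0.035 to 0.14 and Cdh1 from -0.078 to 0.040. The causes were not tested. Cd9 had the fewest counts of the 9 genes, 107 to 170, and the largest standard error, 0.22.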
